A study of Mus musculus with 7 samples.

Results

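The levels of 9 developmental regulators of the kidney were followed in mouse kidney, chosen by name as rows of the deposited expression table out of 48709 Ensembl genes, and all 9 were found once each. Although they are grouped as nephron lineage transcription factors, 5 of them encode transcription factors (Pax2, Pax8, Lhx1, Sall1 and Osr1), 2 encode receptor components (Ret and Gfra1), 1 a growth factor (Igf2) and 1 a noncoding RNA (H19). RNA of whole kidneys from male mice was sequenced for 4 animals with a double knockout of Hs3st3a1 and Hs3st3b1 (DKO, replicates 1 to 4) and 3 wild-type animals (WT, replicates 1, 2 and 4). The sources used here give no age, strain or allele design, and each library carries an animal number of its own, so p-values measure the spread between single kidneys. The title of the study concerns kidney and glomerular size after loss of both enzymes, a pair of enzymes that modify heparan sulfate chains by 3-O-sulfation.

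During development the kidney forms from the ureteric bud, a branching epithelial tube, and the metanephric mesenchyme that surrounds it. The mesenchyme secretes GDNF, which binds the co-receptor GFRA1 and the receptor tyrosine kinase RET on the bud and drives its branching. PAX2, PAX8 and LHX1 specify the nephric duct and later the nephron, while OSR1 and SALL1 act in the mesenchyme and its nephron progenitors. Igf2 and H19 are neighbouring imprinted genes. IGF2 promotes growth of the fetus and H19 is abundant in fetal tissues, and both are switched down after birth in most mouse tissues.

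The libraries held between 18330929 and 24259400 counts. Hs3st3a1 received 1, 0, 0 and 3 reads in DKO kidneys and 29, 13 and 12 reads in WT kidneys, and the row of a neomycin cassette received 73 to 125 reads in DKO kidneys and 0 in WT kidneys, so both separated the libraries as their labels do. Hs3st3b1 received 33 to 108 reads in DKO kidneys and 56 to 112 in WT kidneys. Which part of it the knockout removes is not stated, so its counts do not check the labels. Defining kidney markers were high in both groups: Umod of the thick ascending limb averaged 3991 ± 994 CPM (counts scaled by TMM library size) in DKO kidneys and 6412 ± 1647 CPM in WT kidneys (SD, n = 4 and n = 3). Of the libraries, 2 stood apart. DKO replicate 1 held 522 reads of Acta1 and 658 of Ckm, which are skeletal muscle genes, against at most 32 and 4 reads in any other library. WT replicate 4 differed from the other 6 libraries by a chi-square of 76.0 to 212 per gene, against 41.3 to 103 for the 15 pairs without it. In whole-tissue RNA, fewer cells of a type and less RNA per cell cannot be told apart.

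Levels of the 9 genes were compared with each other as reads per exon length and library size (RPKM, on library sizes scaled by the TMM method), because the genes differ in length. Pax8 was the most abundant at a mean of 19.3 RPKM over the 7 kidneys (range 11.5 to 32.3). Lhx1 came next at 5.54 RPKM (3.65 to 7.02), followed by Sall1 at 2.90 RPKM (1.60 to 4.57). Pax8 lay above Lhx1, and Sall1 above Pax2, without overlap of the libraries. Lhx1 lay above Sall1 in 7 of 7 libraries although their ranges overlapped. Pax2 (0.659 RPKM), Osr1 (0.554 RPKM) and Gfra1 (0.317 RPKM) followed, and neighbours in this order overlapped and changed places between libraries. The scarcest were H19 (0.0613 RPKM), Igf2 (0.0522 RPKM) and Ret (0.0297 RPKM), which also overlapped. On the CPM scale, which is not divided by length, Pax8 stood at percentile 89.8 of the 15394 genes tested, and Osr1 at percentile 12.6. Six2, a transcription factor that marks nephron progenitors, had 0 reads in all 7 libraries, and Cited1, another progenitor marker, had 2 reads in each DKO kidney and 0, 1 and 1 in the WT kidneys.

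The upstream sequences of Pax8, Sall1 and Lhx1 are shown because these were the 3 most abundant members, and each has a RefSeq start within 1 base of its GENCODE start. Each run is the 250 bases before the start on GRCm38.p6, credited to RefSeq, 5′ to 3′ on the gene's own strand. Capitals mark matches, on either strand, to the CCAAT box (CCAAT) or the GC box (GGGCGG).
Pax8, chr2:24475600-24475849, minus strand: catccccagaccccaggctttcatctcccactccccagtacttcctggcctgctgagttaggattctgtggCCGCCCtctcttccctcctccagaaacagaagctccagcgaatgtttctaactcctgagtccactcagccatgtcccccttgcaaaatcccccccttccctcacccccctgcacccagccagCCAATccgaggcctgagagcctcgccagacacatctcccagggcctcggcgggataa
Sall1, chr8:89044163-89044412, minus strand: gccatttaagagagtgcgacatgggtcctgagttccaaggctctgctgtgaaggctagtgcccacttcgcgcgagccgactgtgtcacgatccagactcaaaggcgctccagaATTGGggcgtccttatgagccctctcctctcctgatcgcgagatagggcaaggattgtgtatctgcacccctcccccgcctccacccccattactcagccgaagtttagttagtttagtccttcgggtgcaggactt
Lhx1, chr11:84525535-84525784, minus strand: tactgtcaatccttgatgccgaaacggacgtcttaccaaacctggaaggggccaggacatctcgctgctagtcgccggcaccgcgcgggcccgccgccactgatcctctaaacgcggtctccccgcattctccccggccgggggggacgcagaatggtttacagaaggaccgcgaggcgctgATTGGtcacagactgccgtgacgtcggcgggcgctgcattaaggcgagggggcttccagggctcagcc
Each of the 3 windows held 1 CCAAT box, which 33.9% of the 32851 such windows of all genes also hold. The Pax8 window also held 1 GC box (32.7% of all windows). None of the 3 held a TATA box (TATAAA, 12.4% of all windows), and no match overlapped another. The 3 windows differed in CpG content, with an observed to expected ratio of 0.31 for Pax8, 0.66 for Sall1 and 0.99 for Lhx1, against a median of 0.37 over all windows. Promoter sequences were at hand for 6 of the 9 genes, also Pax2, Gfra1 and Igf2. Sall1 has 2 further starts, 650 and 1300 nt from the GENCODE start, whose windows held 4 GC boxes and 1 GC box and no CCAAT box.

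**Figure D1:**
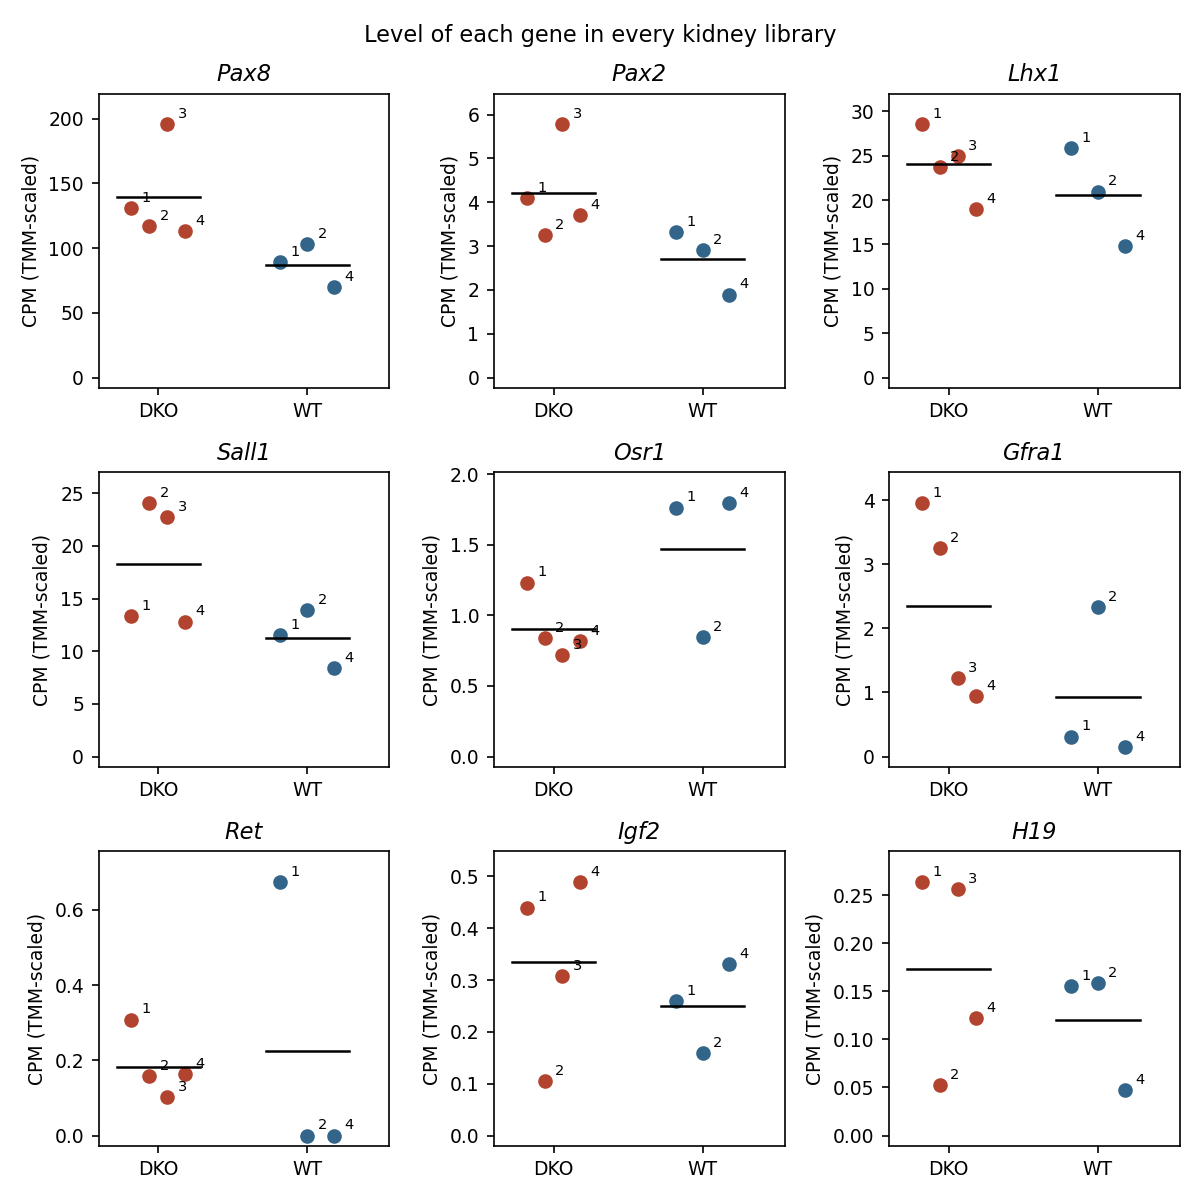
Level of each of the 9 genes in CPM (TMM-scaled, linear axis) in 4 DKO and 3 WT kidneys. Each point is 1 library with its replicate number, and the line is the group mean. The 4 DKO points of Pax8 lie between 113 and 196 CPM, all above the WT points at 69.9 to 103 CPM.

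PAX8, a paired-domain factor that persists in the adult tubule, had the clearest separation of the 9 genes. Pax8 (ENSMUSG00000026976, chromosome 2, positions 24420560 to 24475599 on GRCm38, minus strand, 13 merged exons) was at 131, 117, 196 and 113 CPM in DKO replicates 1 to 4, and at 89.1, 103 and 69.9 CPM in WT replicates 1, 2 and 4. All 4 DKO libraries lay above all 3 WT libraries, and DKO replicate 3 was the highest. The mean was 139 ± 38.6 CPM in DKO kidneys and 87.3 ± 16.6 CPM in WT kidneys (SD, n = 4 and n = 3). The log2 fold change was 0.67 (SE 0.22, 95% interval 0.18 to 1.17), which did not pass adjustment over all genes (edgeR quasi-likelihood test, unadjusted p 0.0117, Benjamini-Hochberg adjusted p 0.164). An exact two-sided permutation test of the means gave p 0.0571, where 0.0286 is the smallest that the 35 splits allow, and 0.386 after adjustment over the 9 genes. Gm13415, a transcript on the opposite strand, shares 367 exonic nt with Pax8 and had 1 to 7 reads per library. The libraries do not mark strand, so reads in the shared stretch cannot be assigned to either gene.

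PAX2, its close paralog, was far scarcer, and like Pax8 it was highest in DKO replicate 3 and lowest in WT replicate 4. Pax2 (ENSMUSG00000004231, chromosome 19, positions 44756045 to 44837871, plus strand, 11 merged exons) was at 4.09, 3.25, 5.79 and 3.71 CPM in DKO replicates 1 to 4, and at 3.32, 2.91 and 1.89 CPM in WT replicates 1, 2 and 4. The groups overlapped, with DKO replicate 2 below WT replicate 1. The log2 fold change was 0.64 (SE 0.29, edgeR adjusted p 0.236, unadjusted p 0.0493, 95% interval 0.0022 to 1.27). There were 3.125, 2.77, 2.95 and 3.29 Pax2 reads per 100 Pax8 reads in DKO replicates 1 to 4, and 3.73, 2.83 and 2.705 in WT replicates 1, 2 and 4. The log2 ratio of Pax2 to Pax8 was -5.04 ± 0.11 in DKO kidneys and -5.03 ± 0.25 in WT kidneys (SD, n = 4 and n = 3), a difference of -0.012 with an exact permutation p of 0.943. The ranges overlapped, from -5.17 to -4.93 in DKO and from -5.21 to -4.75 in WT. It was the only one of 3 planned ratios with enough reads to test. Gm20395, antisense to Pax2 and sharing no exonic sequence with it, had 4 to 19 reads in DKO and 6 to 12 in WT.

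SALL1, a zinc-finger repressor of the mesenchyme, had a similar estimate to that of Pax8, with a different order of kidneys. Sall1 (ENSMUSG00000031665, chromosome 8, positions 89027235 to 89044162, minus strand, 4 merged exons) was at 13.4, 24.1, 22.7 and 12.8 CPM in DKO replicates 1 to 4, and at 11.6, 13.9 and 8.41 CPM in WT replicates 1, 2 and 4. DKO replicates 2 and 3 lay above every WT kidney, whereas DKO replicates 1 and 4 lay within the WT range. The mean was 18.3 ± 5.99 CPM in DKO kidneys and 11.3 ± 2.76 CPM in WT kidneys (SD, n = 4 and n = 3), with a log2 fold change of 0.69 (SE 0.27, edgeR adjusted p 0.198, unadjusted p 0.0277).

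LHX1, a LIM homeodomain factor, had the smallest estimate of the 6 tested genes. Lhx1 (ENSMUSG00000018698, chromosome 11, positions 84518284 to 84525535, minus strand, 5 merged exons) was at 28.6, 23.7, 24.98 and 18.96 CPM in DKO replicates 1 to 4, and at 25.9, 20.9 and 14.8 CPM in WT replicates 1, 2 and 4. Only DKO replicate 1 lay above every WT kidney. The log2 fold change was 0.23 (SE 0.21, edgeR adjusted p 0.545), with a 95% interval from -0.24 to 0.69, so a difference as large as that of Pax8 lies at its edge. It was 0.037 without WT replicate 4.

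OSR1, the earliest of these factors in the mesenchyme, was the only one of the 6 tested genes with a negative estimate. Osr1 (ENSMUSG00000048387, chromosome 12, positions 9570116 to 9581500, plus strand, 4 merged exons) was at 1.23, 0.840, 0.717 and 0.815 CPM in DKO replicates 1 to 4, and at 1.76, 0.846 and 1.796 CPM in WT replicates 1, 2 and 4. WT replicate 2 lay among the DKO kidneys. The log2 fold change was -0.70 (SE 0.38, edgeR adjusted p 0.299, 95% interval -1.53 to 0.13) on 78 reads in DKO and 88 in WT. It was -0.99 without WT replicate 2 (edgeR adjusted p 0.167). Fibroblast and mural cell markers had summed levels of 345 to 588 CPM in DKO kidneys and 402 to 533 CPM in WT kidneys. Of these markers 5 of 9 were higher in DKO, against 53.2% of all genes. None was called by edgeR, and Myh11 was called by DESeq2 (adjusted p 0.033), which called 5.71% of genes. The part of these markers in the Osr1 values was not tested.

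GFRA1, the membrane-anchored co-receptor for GDNF, varied more between kidneys of the same genotype than any other tested member. Gfra1 (ENSMUSG00000025089, chromosome 19, positions 58235604 to 58455909, minus strand, 15 merged exons) was at 3.96, 3.25, 1.23 and 0.938 CPM in DKO replicates 1 to 4, and at 0.311, 2.33 and 0.142 CPM in WT replicates 1, 2 and 4. WT replicate 2 lay among the DKO kidneys, while WT replicates 1 and 4 lay below all of them. Within a genotype, the SD of Gfra1 was 63.5% of its mean in DKO kidneys and 131% in WT kidneys. For the other tested members it was at most 32.8% in DKO (Sall1) and 36.7% in WT (Osr1). Over both genotypes together, the highest library was 27.9 times the lowest, against 1.93 to 3.06 times for Pax2, Pax8, Lhx1, Sall1 and Osr1. The biological coefficient of variation of Gfra1 was 0.739, where genes of like abundance had 0.333. The log2 fold change was 1.35 (SE 0.86, edgeR adjusted p 0.384), with a 95% interval from -0.61 to 3.30. Its size rested on single libraries, at 3.34 without WT replicate 2 (edgeR adjusted p 0.112) and 0.82 without WT replicate 4 (edgeR adjusted p 0.725). Gfra1 passed the low-count filter with all 4 DKO libraries at 23 reads or more, and with 6, 44 and 3 reads in WT. Gm16277, on the opposite strand, shares 416 exonic nt with Gfra1 and had 0 reads in all libraries.

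RET, the signalling receptor that GFRA1 presents GDNF to, was close to the limit of detection. Ret (ENSMUSG00000030110, 20 merged exons on the minus strand of chromosome 6, positions 118151745 to 118197718) had 7, 3, 2 and 4 reads in DKO replicates 1 to 4, and 13, 0 and 0 reads in WT replicates 1, 2 and 4. All 4 DKO kidneys had a few reads, while 1 WT kidney held the most of any and the other two held none. The limit that a count of 0 allows was 0.159 CPM in WT replicate 2 and 0.142 CPM in WT replicate 4, and DKO levels were 0.308, 0.157, 0.102 and 0.163 CPM. The pooled DKO to WT read ratio was 0.851 (exact 95% binomial interval 0.384 to 1.92, counting error only). Without WT replicate 1 there were 16 reads in DKO kidneys against 0 in WT kidneys, and the exact 95% binomial interval of the ratio began at 1.8, in a comparison chosen after seeing the data. Gfra1 reads outnumbered Ret reads in every DKO kidney, by 12.9, 20.7, 12 and 5.75 to 1, and also in WT replicates 2 (44 against 0) and 4 (3 against 0), while WT replicate 1 had 6 Gfra1 and 13 Ret reads. Ret was left out by the low-count filter and has no fitted fold change here.

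IGF2, the fetal growth factor, and the H19 RNA were both detected in every kidney at a few reads. Igf2 (ENSMUSG00000048583, 8 merged exons on the minus strand of chromosome 7, positions 142650766 to 142666816) had 10, 2, 6 and 12 reads in DKO replicates 1 to 4, and 5, 3 and 7 reads in WT replicates 1, 2 and 4. H19 (ENSMUSG00000000031, 3 merged exons on the same strand and chromosome, positions 142575529 to 142578143) had 6, 1, 5 and 3 reads in DKO replicates 1 to 4, and 3, 3 and 1 reads in WT replicates 1, 2 and 4. The groups overlapped for both genes. The pooled DKO to WT read ratio was 1.38 for Igf2 (exact 95% binomial interval 0.721 to 2.77) and 1.48 for H19 (0.569 to 4.30), so a difference was not detectable at this depth. Skeletal muscle markers summed to 72.7, 5.61, 5.27 and 4.85 CPM in DKO replicates 1 to 4, and to 3.63, 5.76 and 4.87 CPM in WT. Without DKO replicate 1 the ratios were 1.25 for Igf2 and 1.21 for H19. Neither gene passed the low-count filter. Igf2os, on the opposite strand, shares 98 exonic nt with Igf2 and had at most 1 read per library. In GENCODE M21 the readthrough gene Gm49394 shares 3596 exonic nt with Igf2, but it has no row among the deposited counts. How reads in the shared stretch were counted is therefore not known. The Mir675 row, a microRNA inside an exon of H19, had 0 reads in all libraries.

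**Figure D2:**
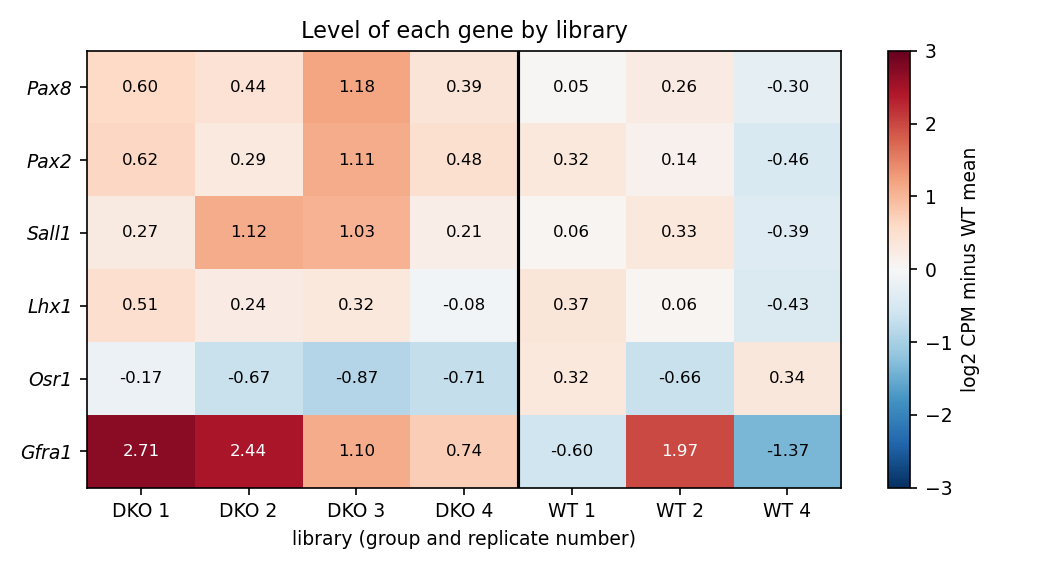
Log2 CPM minus the WT mean for the 6 tested genes (rows) in each library (columns, DKO left of the line and WT right of it). Pax8 and Pax2 are highest in DKO replicate 3 (1.18 and 1.11), Sall1 in DKO replicates 2 and 3, and Gfra1 in DKO replicates 1 and 2 and WT replicate 2.

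Of the 9 genes, 6 passed the low-count filter and were tested, and 0 of them was called at an adjusted p under 0.05. edgeR called 0 of all 15394 genes (0%), or 66 of 27440 with no low-count filter (0.241%), while 21.1% had an unadjusted p under 0.05. DESeq2 called 655 of 11474 genes (5.71%, and 2.02% higher in DKO) and 0 of the 4 members to which it gave an adjusted p (Pax2, Pax8, Lhx1 and Sall1), with its lowest member at an adjusted p of 0.0704 for Pax8. At an unadjusted p under 0.05 there were 3 members, Pax8, Sall1 and Pax2, all higher in DKO, where 9.86% of all genes were higher and 11.3% lower at that level. This count was 1, Pax8 alone, without WT replicate 4 and also without DKO replicate 3, where the share of all genes at that level was 10.1% and 14.5%. WT replicate 4 was the lowest library for Pax8, Pax2, Lhx1, Sall1 and Gfra1. Without it the log2 fold change was 0.53 for Pax8, 0.43 for Pax2, 0.51 for Sall1 and -0.53 for Osr1, and their edgeR adjusted p lay between 0.494 and 0.650. Pax8 was the 1 member whose groups did not overlap, against 17.4% of all genes, 8.34% higher and 9.04% lower in DKO. The estimate was above 0 for 5 of the 6 members and for 53.2% of all genes. Gfra1, among these 5, passed the low-count filter only with its DKO libraries, so its sign is not free of the filter. Exact two-sided permutation p for the mean CPM was 0.0857 for Pax2, 0.371 for Lhx1, 0.2 for Sall1, 0.143 for Osr1 and 0.229 for Gfra1. It was 0.914 for Ret and 0.486 each for Igf2 and H19. The median log2 fold change of the 6 tested members, Gfra1 included, was 0.66, against 0.036 over all genes tested.

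The share of genes higher in DKO differed with gene length. Among genes with exons within 1.2-fold of the length of Pax8 (6061 nt), 67.7% were higher in DKO with a median log2 fold change of 0.15, and for the length of Osr1 (2066 nt) the share was 34.4% with a median of -0.16. With a trend on length and GC content removed, the log2 fold change was 0.53 for Pax8 (SE 0.20), 0.51 for Pax2 (SE 0.28), 0.58 for Sall1 (SE 0.25), 0.18 for Lhx1, -0.58 for Osr1 and 1.26 for Gfra1. All 6 kept their sign, and their edgeR adjusted p lay between 0.275 and 0.672.

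**Figure D3:**
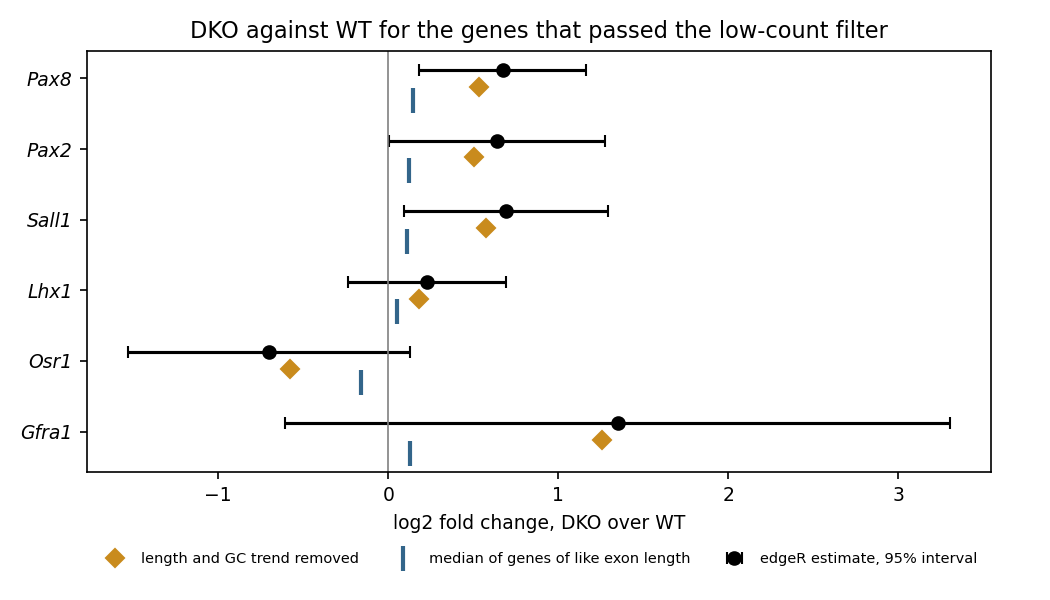
Log2 fold change of DKO over WT for the 6 tested genes, with 95% intervals (black), the value after a length and GC trend was removed (diamonds) and the median of genes of like exon length (bars). The intervals of Pax8, Pax2 and Sall1 lie above 0 before adjustment, and those of Lhx1, Osr1 and Gfra1 span it.

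Summed levels of cell type and tissue markers also varied between kidneys. Parietal epithelium of the glomerulus, which is known to express Pax2 and Pax8, had marker sums of 47.1 to 68.3 CPM in DKO kidneys and 30.4 to 45.9 CPM in WT kidneys. All 4 of its markers were higher in DKO, against 53.2% of all genes, and none was called by edgeR. DESeq2 called Cp (adjusted p 0.0402), where it called 5.71% of genes. Cp was at 29.1 ± 6.87 CPM in DKO and 17.0 ± 3.15 CPM in WT (SD, n = 4 and n = 3), and Cldn1 at 16.9 ± 4.24 CPM and 10.3 ± 3.40 CPM in DKO and WT. Principal cell markers of the collecting duct summed to 807, 726, 1328 and 971 CPM in DKO replicates 1 to 4, and to 891, 676 and 1007 CPM in WT. They were highest in DKO replicate 3, where Pax8 and Pax2 were also highest. WT replicate 4, the lowest library for Pax8 and Pax2, held more of them than DKO replicates 1, 2 and 4. Of the 8 tested markers 4 were higher in DKO. Thick ascending limb markers summed to 4272 to 6621 CPM in DKO kidneys and 6016 to 9688 CPM in WT kidneys. Of these markers 4 of 6 were lower at an unadjusted p under 0.05, against 11.3% of all genes. None was called by edgeR, and Cldn16 was called by DESeq2 (adjusted p 0.0238). Proximal tubule markers summed to 6873 to 9071 CPM in DKO and 7627 to 10030.0 CPM in WT. That sum leaned on Kap, an androgen-dependent transcript at 1029 ± 735 CPM in DKO and 3448 ± 1710.0 CPM in WT. Kap did not overlap between the groups, which held for 17.4% of all genes. The sums of the other 8 markers, a selection made after seeing the data, did not overlap either. They were 5961 to 7033 CPM in DKO and 4610.0 to 5663 CPM in WT. These sums leaned in turn on Slc34a1, at 4550 ± 361 CPM in DKO and 3198 ± 191 CPM in WT. DESeq2 called Slc34a1 (adjusted p 0.0298) and Cubn (adjusted p 0.0422) as higher. Of all 9 markers 6 were higher in DKO and 3 lower, among them Slc7a13, at 193.5 ± 60.25 CPM in DKO and 272.6 ± 167.5 CPM in WT. Podocyte markers summed to 126 to 158 CPM in DKO and 114 to 121 CPM in WT, without overlap. Taken singly, 2 of these 7 markers did not overlap, against 17.4% of all genes. Of the 7, 5 were higher, and Podxl was called by DESeq2 (adjusted p 0.033). The sums overlapped for distal convoluted tubule (1292 to 2025 CPM in DKO, 1115 to 1987 CPM in WT), intercalated cells (204 to 279 CPM, 252 to 436.5 CPM, with 5 of 7 lower and Atp6v1g3 called lower by DESeq2, adjusted p 0.0348) and endothelium (309 to 352 CPM, 266 to 403 CPM). They also overlapped for proliferating cells (3.17 to 14.6 CPM in DKO, 13.1 to 20.4 CPM in WT), adipose tissue (378 to 1146 CPM, 170.5 to 791 CPM) and urothelium (43.0 to 53.5 CPM, 38.7 to 73.9 CPM). None of these lists had a marker at 0, and their part in the values of the members was not tested. The adrenal cortex, whose cells lie against the kidney, left few signs: Cyp11b2 and Cyp21a1 had 0 reads in all libraries and Star averaged 2.92 ± 1.02 CPM in DKO and 2.22 ± 0.976 CPM in WT.

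Of the partners of GFRA1 and RET, none of those tested was called by edgeR. Gdnf, the ligand itself, had 2, 3, 3 and 0 reads in DKO replicates 1 to 4, and 0, 0 and 2 reads in WT. Of 29 listed genes of the pathway 20 were tested, 9 higher and 11 lower in DKO, with a median log2 fold change of -0.044. At an unadjusted p under 0.05, 2 were higher and 1 was lower, against 9.86% and 11.3% of all genes. Over all genes, 53.2% had an estimate above 0. Nrtn, which encodes neurturin, a relative of GDNF that prefers another co-receptor, was at 3.10 ± 0.799 CPM in DKO kidneys and 6.32 ± 2.35 CPM in WT kidneys (SD, n = 4 and n = 3). Its groups did not overlap, which held for 17.4% of all genes. Its estimate was -1.03 on the log2 scale (SE 0.30) with an edgeR adjusted p of 0.163. DESeq2 called it (-1.04, adjusted p 0.0375), as it called 5.71% of genes. Frs2, a docking protein of FGF receptors and RET, was at 4.90 ± 0.732 CPM and 2.97 ± 0.252 CPM in DKO and WT (log2 fold change 0.72), and Sorl1, a sorting receptor for GDNF and GFRA1, at 34.3 ± 5.78 CPM and 24.5 ± 0.794 CPM (0.49). The most abundant were the feedback inhibitor Spry2, at 174 ± 24.5 CPM in DKO and 191 ± 29.3 CPM in WT, and the adaptor Grb7, at 117 ± 10.5 CPM and 122 ± 1.24 CPM.

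Most other transcription factors of kidney development had positive estimates. Of 37 listed genes 30 were tested, 21 higher and 9 lower, with a median log2 fold change of 0.15, and 0 were called by edgeR. At an unadjusted p under 0.05, 7 were higher and 1 was lower, against 9.86% and 11.3% of all genes. Over all genes, 53.2% had a positive estimate. Tfcp2l1, a factor of the distal nephron and collecting duct, was at 161 ± 36.9 CPM in DKO kidneys and 97.9 ± 4.63 CPM in WT kidneys, with a log2 fold change of 0.71 (SE 0.19, edgeR adjusted p 0.163). It was called by DESeq2 (adjusted p 0.0298), as were 5.71% of genes. Hnf4a, the proximal tubule factor and the most abundant of the list, was at 284 ± 61.1 CPM and 182 ± 65.6 CPM (log2 fold change 0.65), and Pou3f3, a factor of the loop of Henle, at 104 ± 14.3 CPM and 69.8 ± 21.5 CPM (0.57).

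None of the tested cofactors and inductive ligands was called by edgeR. Of 15 cofactors of PAX, LHX1 and SALL1 11 were higher in DKO (median log2 fold change 0.20), against 53.2% of all genes. Only 1 had an unadjusted p under 0.05, against 21.1% of all genes. It was Paxip1, which links PAX2 to histone methylation, at 19.4 ± 3.91 CPM in DKO and 14.2 ± 2.02 CPM in WT. Hdac1, of the repressor complex that SALL1 recruits, was at 23.0 ± 3.14 CPM and 28.2 ± 3.43 CPM, and Mta1 of the same complex at 5.37 ± 0.972 CPM and 3.88 ± 0.592 CPM. The most abundant were the ubiquitin ligase Rlim, at 177 ± 33.2 CPM and 142 ± 34.6 CPM, and Rbbp7, at 130 ± 19.2 CPM and 113 ± 27.1 CPM in DKO and WT. Of 11 tested ligands and antagonists 6 were higher and 5 lower (median 0.20). Wnt4, which triggers the conversion of mesenchyme to nephron, was at 1.97 ± 0.486 CPM in DKO and 3.44 ± 1.35 CPM in WT, with a log2 fold change of -0.79, and Wnt5a at 8.76 ± 1.59 CPM and 5.92 ± 1.76 CPM, with one of 0.57. Slit2, whose signal restricts the site of bud outgrowth, was at 8.79 ± 2.42 CPM and 6.09 ± 1.05 CPM. Bmp4 was at 74.0 ± 9.06 CPM and 64.6 ± 12.3 CPM, and Bmp7 at 42.4 ± 6.74 CPM and 36.7 ± 0.657 CPM.

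Receptors and binding proteins of the IGF axis ranged widely in level, while Igf2 itself lay at 0.105 to 0.489 CPM. Of 22 listed genes of the IGF axis 21 were tested, 14 higher and 7 lower, with a median log2 fold change of 0.27. Over all genes, 53.2% were higher. None of the list was called by edgeR. At an unadjusted p under 0.05, 5 were higher and 2 lower, against 9.86% and 11.3% of all genes. Igf1r, the receptor through which IGF1 and IGF2 signal, was at 77.7 ± 7.92 CPM in DKO kidneys and 47.9 ± 8.85 CPM in WT kidneys. Its groups did not overlap, which held for 17.4% of all genes. Its log2 fold change was 0.70 (SE 0.17) at an edgeR adjusted p of 0.163. It was among the calls of DESeq2 (adjusted p 0.0238), which took in 5.71% of genes. Igfbp2, an IGF-binding protein, was at 1.66 ± 0.697 CPM and 3.97 ± 0.991 CPM in DKO and WT (log2 fold change -1.26, edgeR adjusted p 0.163), and Igfbp5 at 110.0 ± 20.6 CPM and 71.4 ± 14.2 CPM (0.62, edgeR adjusted p 0.164). DESeq2 also called Igfbp1 (log2 fold change 1.27, adjusted p 0.033), which was named after its value was seen. The most abundant were Igfbp4, at 220.5 ± 41.4 CPM and 228 ± 7.56 CPM, and the growth hormone receptor Ghr, at 212 ± 33.8 CPM and 194 ± 80.2 CPM.

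Other imprinted genes had estimates in both directions. Of 25 listed 16 were tested, 6 higher and 10 lower in DKO, with a median log2 fold change of -0.054. Over all genes, 53.2% were higher. At an unadjusted p under 0.05, 4 were higher and 4 lower, against 9.86% and 11.3% of all genes. Among the 4 higher, Meg3 and Gnas passed the low-count filter only with their DKO libraries, so their signs are not free of the filter. Both were named after their values were seen. None was called by edgeR. Nnat, a small membrane protein, was at 0.271 ± 0.152 CPM in DKO kidneys and 1.19 ± 0.382 CPM in WT kidneys (log2 fold change -2.12, SE 0.49, edgeR adjusted p 0.163). Nnat passed the low-count filter only with its WT libraries, so its sign is not free of the filter either. Airn, an RNA antisense to Igf2r, was at 19.3 ± 5.39 CPM and 41.3 ± 17.0 CPM in DKO and WT (a log2 fold change of -1.10 at an edgeR adjusted p of 0.163). DESeq2 called Airn (adjusted p 0.0232), as it called 5.71% of genes. Kcnq1ot1, antisense to Kcnq1, was at 23.4 ± 9.54 CPM and 11.7 ± 2.42 CPM (0.99, edgeR adjusted p 0.169). Reads of antisense pairs cannot be told apart without strand. The most abundant were Slc22a18, at 955 ± 87.2 CPM and 974 ± 126 CPM, and Grb10, an adaptor of the insulin and IGF1 receptors, at 32.2 ± 3.93 CPM and 24.3 ± 4.197 CPM.

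**Figure D4:**
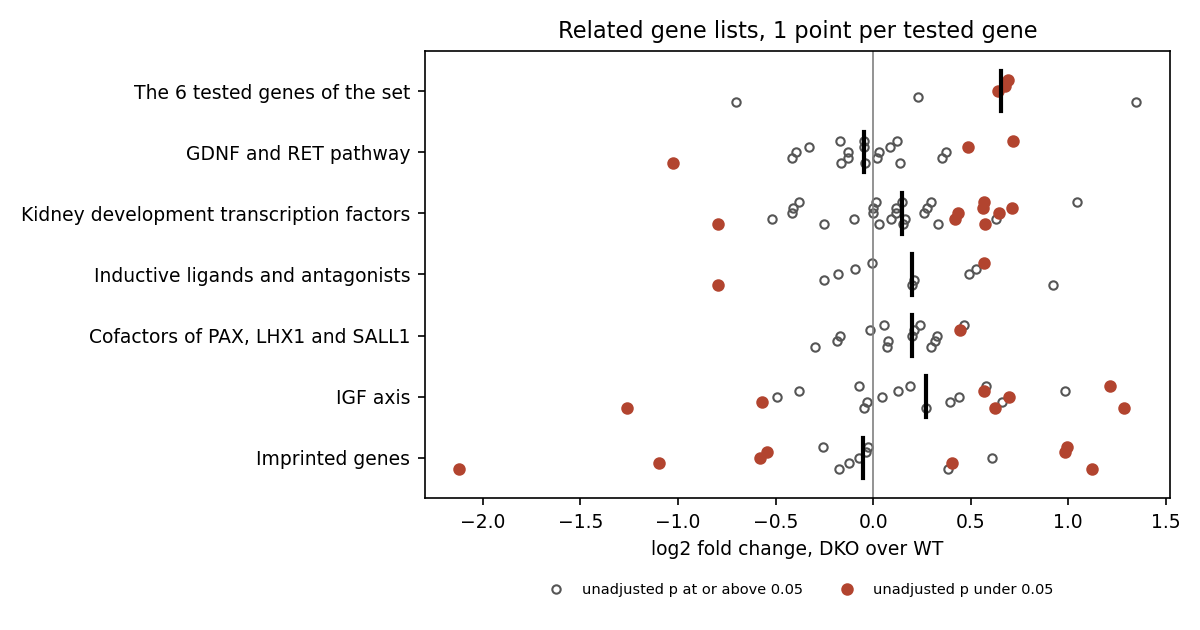
Log2 fold change of DKO over WT for every tested gene of 6 related lists and for the 6 tested members (1 point per gene, filled where the unadjusted p is under 0.05, black bar at the median). The medians of the related lists lie between -0.054 and 0.27.

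Likeness of pattern was measured for each tested member as the root mean square difference between centred log2 CPM profiles over the 7 libraries, among genes with a mean of at least 1 CPM. The nearest profiles were those of Ccdc62 (difference 0.059) and Sesn2 (0.091) for Pax8, and of Dab1 (0.095) and Abcg1 (0.10) for Pax2. For Lhx1 they were Mocs1 and Plcb3 (0.087 each), for Sall1 Gm25184 (0.083) and Akap8 (0.11), and for Osr1 Clec4a2 (0.14), a gene of myeloid cells. For Gfra1 they were Mcoln2 (0.36) and Ceacam2 (0.37), which were as uneven between kidneys, with Mcoln2 at 2.94 ± 2.11 CPM in DKO and 1.29 ± 1.63 CPM in WT and Ceacam2 at 18.6 ± 11.2 CPM and 8.64 ± 10.6 CPM (SD, n = 4 and n = 3). The median gene differed from Gfra1 by 1.45 and from the other 5 by 0.41 to 0.55.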

How the data were processed

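RNA sequencing of 7 kidneys (4 DKO, 3 WT) was analysed from the authors' tables. The submitters' processing notes name STAR 2.5.2a, DESeq2, limma and edgeR, and the builds GRCm38 (mm10) and GRCh38, with no role for each. No counter, strand setting or annotation release is named in the sources used here. Libraries do not mark strand, per the labels' protocols. The authors deposited raw counts per gene (48733 rows, 24 of them transgene or spike-in rows, at most 0.000697% of counts, left out) and a filtered version. They also deposited a TMM-scaled CPM signal table (18866 rows, 69 repeats), used for symbols and 1 alternative.

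Values given as CPM were computed from raw counts on TMM-scaled library sizes, and RPKM used merged exon lengths of GENCODE M21 on GRCm38, which matched 48349 genes. DKO was tested against WT with edgeR 4.0.16 in R 4.3.3 (quasi-likelihood, robust, filterByExpr with a minimum count of 10 and a minimum total of 15, 15394 genes, two-sided, Benjamini-Hochberg adjustment, threshold 0.05). Standard errors were derived from the F statistic. DESeq2 1.42.0 and limma 3.58.1 were alternatives, as were other scalings and filters, a length and GC trend removed by offsets, a replicate block and leaving out each library. Single genes were also compared by exact permutation of mean CPM, and pooled reads by exact binomial intervals, which cover counting error only, with a count of 0 taken to allow 3. Libraries carry different animal numbers and each counted as 1 animal. No library repeated another (chi-square per gene between pairs was 41.3 to 212). On counts simulated for DKO against WT over 15394 genes, edgeR recovered 6% of 50 genes set to a 1.5-fold change, 56% at 2-fold and 96% at 4-fold. The simulation gave each gene the variation typical of its abundance and held no outlying library. It therefore does not give the recovery for genes as uneven as Gfra1 (coefficient of variation 0.739, against 0.333 for genes of like abundance).

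Members, lists and tests were chosen with earlier results of these data known. Named genes were all members, from each pathway list up to 3 with the smallest p and the 2 most abundant, the summed level of each marker list with its most abundant genes, and the 2 nearest profiles per member. Genes outside this rule are given as such or as checks of tissue and labels. Some genes that this rule names are not reported here.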

Additional observations from a re-analysis of the deposited data

Results flagged for a closer look

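Reads on the transgene rows, which no comparison of expression used, were above the level of the WT controls in every DKO library. The neomycin cassette row held 73, 75, 81 and 125 reads in DKO replicates 1 to 4 and 0 in each WT library, so the lowest DKO value was 73. The lacZ row held 21, 21, 16 and 32 reads in DKO replicates 1 to 4 and 1, 2 and 5 in WT replicates 1, 2 and 4, so the lowest DKO value was 16.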

How the results depend on the processing

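The sign of the log2 fold change held for Pax2, Pax8, Lhx1, Sall1, Osr1 and Gfra1 under all 18 alternative fits of the counts, and no member was called in any of them, although DESeq2 gave no adjusted p for Osr1 and Gfra1. The ranges were 0.35 to 0.80 for Pax2, 0.34 to 0.80 for Pax8, 0.037 to 0.41 for Lhx1, 0.44 to 0.86 for Sall1, -0.99 to -0.47 for Osr1 and 0.82 to 3.34 for Gfra1, with adjusted p from 0.0704 (Pax8, DESeq2) upward. Ret turned to 0.031 with limma on the authors' TMM CPM at a pseudocount of 0.5, against -0.26 in edgeR with no low-count filter, and the cause was not tested. The number of all genes called, 0 in the main test, was 655 with DESeq2 and 66 with no low-count filter, and 0 to 7 when 1 library was left out (7 without DKO replicate 1, 1 without WT replicate 2). The DKO minus WT difference in the log2 ratio of Pax2 to Pax8, -0.012 with all libraries, lay between -0.099 and 0.13 when 1 library was left out, and turned positive without DKO replicate 2 (0.030), DKO replicate 3 (0.00048) or WT replicate 1 (0.13). Replicate numbers are not stated to pair the animals. Same-numbered deviations from the group means correlated at -0.13, 0.16 and 0.14 for numbers 1, 2 and 4. With so few libraries per group these values cannot decide whether animals were paired. With the replicate number as a block, on the 6 libraries with shared numbers, 0 genes were called and the log2 fold changes were 0.49 for Pax8, 0.48 for Pax2, 0.55 for Sall1 and 2.001 for Gfra1, with unadjusted edgeR p of 0.0275, 0.140, 0.0239 and 0.00847. With the block and the length and GC trend removed together they were 0.34, 0.35, 0.44 and 1.88, and 0 genes were called. The share of all genes at an unadjusted p under 0.05, 21.1% with all libraries, was 15.1% with the block and 10.1% (without WT replicate 4) to 24.9% (without DKO replicate 1) when 1 library was left out. The count of members at an unadjusted p under 0.05 was between 1 and 4; it and the pooled read ratios without 1 library were added after seeing the data. Depth limits Ret, Igf2 and H19, with 29, 45 and 22 reads in all.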
